A study of Mus musculus with 9 samples.

Results

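Nuclear-encoded genes of oxidative phosphorylation were followed in whole mouse kidney, in healthy animals, in a diabetic model and in the same model given dehydrozingerone (DHZ), a phenolic ginger compound related to curcumin. The genes were taken by name: protein-coding genes whose symbol starts with Ndufa, Ndufb, Ndufc, Ndufs, Ndufv, Uqcr, Cox4, Cox5, Cox6, Cox7, Cox8 or Atp5, plus Sdha, Sdhb, Sdhc, Sdhd and Cyc1. This rule found 95 genes among the 55359 in the count table, of which 21877 are protein-coding. By their known roles, 36 belong to complex I, 4 to complex II, 9 to complex III, 19 to complex IV and 17 to complex V, and 10 more that share the name stems are assembly factors or associated proteins. Complex IV here includes Ndufa4, a subunit first assigned to complex I, and its relative Ndufa4l2. Gene names follow the older symbols of the annotation. Current names are Atp5f1a for Atp5a1, Atp5f1b for Atp5b, Atp5f1e for Atp5e, Atp5pb for Atp5f1, Atp5pd for Atp5h and Atp5mj for Atp5mpl. Because of the older symbols, the ATP synthase inhibitor Atpif1 and the small subunit Usmg5 lie outside the rule.

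Messenger RNA of whole kidney was sequenced in 9 libraries, 3 per group. NCD vehicle mice received a normal-calorie diet with 11.32% of calories from fat, begun at 6 weeks of age, and the vehicle. HFD-STZ vehicle mice received a diet with 49.0% of calories from fat from the same age, the vehicle, and 2 injections of 30 mg/kg streptozotocin (STZ), the first on day 60 and the next on day 63; a blood glucose test followed on day 65. Streptozotocin is toxic to the insulin-producing beta cells of the pancreas. HFD-STZ DHZ mice had the same diet and injections and then 50 mg/kg DHZ orally for 2 weeks. Neither strain, sex nor genotype is given in the labels used here, nor is it said that each library came from a separate animal. The p-values therefore measure the spread between these libraries, which may be technical in part. Each library carries its own batch date, and since these dates run in group order, effects of batch and of group cannot be told apart.

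Oxidative phosphorylation turns the energy of nutrients into ATP at the inner mitochondrial membrane. Complexes I and II pass electrons from NADH and succinate to ubiquinone, complex III hands them to cytochrome c, complex IV reduces oxygen, and complex V, the ATP synthase, uses the proton gradient built by complexes I, III and IV. Most subunits are encoded in the nucleus and a few in the mitochondrial genome. Kidney tubules, among them the proximal tubule and the thick ascending limb, are rich in mitochondria because salt transport consumes ATP.

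Total counts ranged from 15109595 to 47522079 per library, of which 2129110 to 15211933 fell on nuclear protein-coding genes. Genes of the mitochondrial genome took between 39.2% and 60.4% of all counts, and unprocessed pseudogenes between 19.1% and 26.2%. The mitochondrial share was highest in HFD-STZ vehicle replicate 2 (60.4%), HFD-STZ vehicle replicate 3 (52.4%) and NCD vehicle replicate 1 (51.5%). HFD-STZ vehicle replicate 2 also had the fewest nuclear protein-coding counts. Levels are in counts-per-million units (CPM) of a library size to which trimmed-mean (TMM) scaling factors from all genes were applied, so they depend on that scaling. Y-linked transcripts were at 84.7 to 112 CPM in 4 libraries (NCD vehicle replicate 1, HFD-STZ vehicle replicates 2 and 3, and HFD-STZ DHZ replicate 3) and at most at 0.128 in the other 5. Summed with the female-expressed RNA Xist, they reached 84.8 to 113 CPM in those 4 libraries and 355 to 632 in the other 5. By these transcripts each group appears to hold libraries of both sexes, in unequal numbers. Defining markers of kidney tubules were present in every library: the 8 proximal tubule markers summed to between 1691 and 3563 CPM.

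Of the 95 genes, 89 passed the filter on low counts and were tested together with the rest of the table. The 6 that did not pass were Cox4i2, Cox6a2, Cox7b2, Ndufa4l2, Cox8c and a second entry named Atp5o. Cox8c and the second Atp5o entry had 0 counts in all 9 libraries. A gene is called where its p, adjusted by Benjamini-Hochberg for the 17179 genes tested, is below 0.05 in edgeR's quasi-likelihood test, and fold changes are on the log2 scale unless given as folds.

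Many nuclear OXPHOS promoters are known to bind NRF1 and the ETS-family factor GABP, which is also called NRF2. Promoter windows from RefSeq (GRCm38.p6) were at hand for 76 of the 94 member symbols, in 81 windows of 300 bases, from 250 bases before to 50 after the start of transcription. The NRF1 motif (on either strand GCGC, any base, T and GCGC in a row) was found in 24.7% of the members' windows and in 6.60% of the windows of all protein-coding genes. The ETS motif CCGGAAGT was present in 6.17% against 5.34%, and the YY1 motif (AAGATGG followed by CGG) in 7.41% against 1.26%. A match describes these letters only and is not evidence of binding. The windows of Sdha and Uqcrh are shown because these are the members with the lowest p in the DHZ comparison, 1 per complex, whose window holds an NRF1 or ETS match. Each is on the minus strand of its chromosome, is printed in the direction of transcription and ends 30 bases after the start. Capitals mark the NRF1 matches in Sdha (chr13:74350211-74350490) and the ETS match in Uqcrh (chr4:116075041-116075320). In both windows the motif as given above is read on the strand opposite to the printed one.
Sdha: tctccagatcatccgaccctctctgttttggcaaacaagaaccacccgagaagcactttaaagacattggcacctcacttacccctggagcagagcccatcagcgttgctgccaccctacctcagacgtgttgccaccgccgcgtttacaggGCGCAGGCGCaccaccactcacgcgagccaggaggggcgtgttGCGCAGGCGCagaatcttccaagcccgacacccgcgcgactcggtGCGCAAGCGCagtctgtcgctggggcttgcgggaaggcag
Uqcrh: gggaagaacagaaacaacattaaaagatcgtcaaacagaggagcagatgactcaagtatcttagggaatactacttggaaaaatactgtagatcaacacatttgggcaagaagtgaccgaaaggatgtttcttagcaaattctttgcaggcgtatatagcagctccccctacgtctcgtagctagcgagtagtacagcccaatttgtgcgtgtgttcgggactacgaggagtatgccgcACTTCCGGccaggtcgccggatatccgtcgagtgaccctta
In Sdha the 3 matches begin 98, 55 and 10 bases before the start, and in Uqcrh the match begins 11 bases before it. Among tested members with a window, the median log2 fold change in the DHZ comparison described next was 0.18 for the 19 with an NRF1 match and 0.24 for the 56 without. Called members numbered 2 of the 19 with an NRF1 match, both higher, and 14 of the 56 without, of which 11 were higher. Over all genes tested, 22.1% were called in that comparison and 10.0% were called higher. Whether calls differ by motif was not tested.

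More members were called with DHZ than between HFD-STZ vehicle and NCD vehicle. Between HFD-STZ DHZ and HFD-STZ vehicle, 18 of the 89 members were called, or 20.2%, against 22.1% of all genes tested, so members were called about as often as other genes. By direction, 14 rose, which is 15.7% against 10.0% of all genes, and 4 fell, which is 4.49% against 12.0%. Among protein-coding genes, the closer like set, 11.5% rose and 8.93% fell. The 14 were Ndufs4, Ndufc2, Sdha, Sdhd, Uqcrh, Uqcrfs1, Cox5a, Cox7a2, Ndufa4, Atp5f1, Atp5b, Atp5a1, Cox7a2l and Ndufaf1, and the 4 were Ndufb2, Ndufa10, Ndufs7 and Uqcrq. The members' median log2 fold change was 0.24, beside 0.04 for all genes and 0.13 for protein-coding genes. Counting groups that do not overlap gave 34.8% of members and 39.8% of all genes. The split by direction depended on the scaling: it was 13 higher and 0 lower with library size alone, a scaling that moved the median of all genes to 0.81 and called 5.17% of them, and 14 higher and 7 lower when scaled and tested on nuclear protein-coding genes only, of which 19.7% were called. Without HFD-STZ DHZ replicate 1 only 5 members stayed called (Atp5f1, Cox5a, Cox7a2, Cox7a2l and Ndufaf1), with 6.55% of all genes called, and without HFD-STZ DHZ replicate 2 the count was 7, with 7.41% of all genes called.

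**Figure D1:**
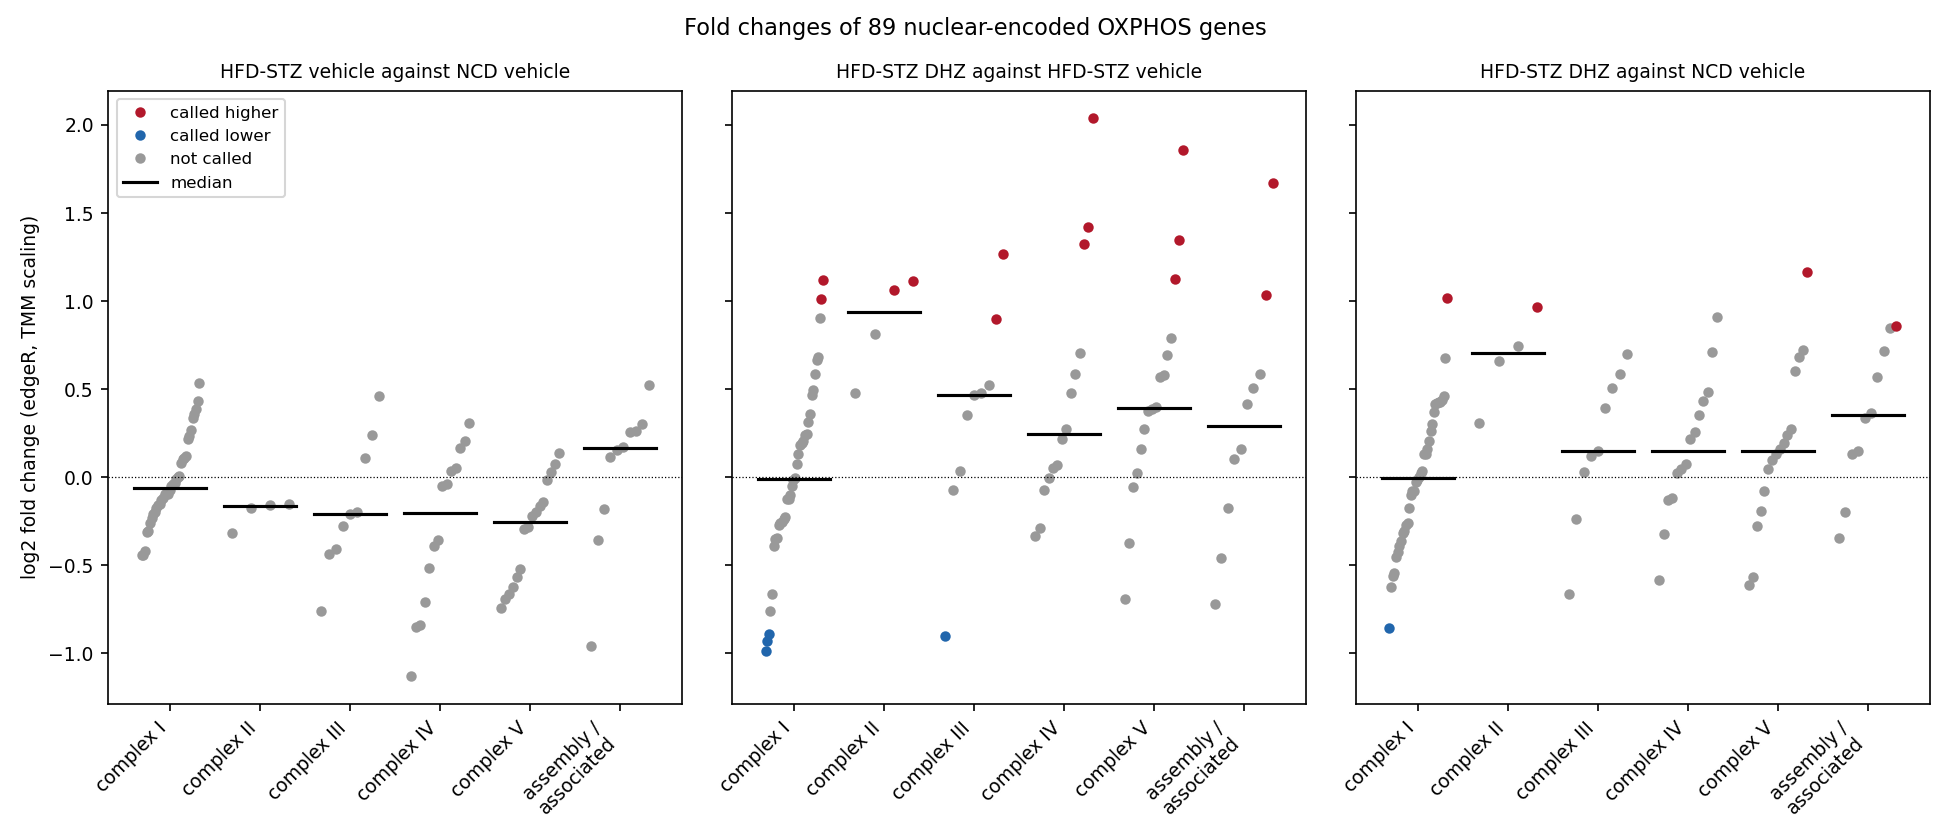
Log2 fold changes of the 89 tested members (y axis) by complex (x axis) in the 3 comparisons. Each point is a gene, red and blue mark genes called higher and lower, grey marks genes not called, and a black line is the median of the complex. The middle panel holds 14 red and 4 blue points, the left panel none.

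Complex I, the NADH dehydrogenase, had calls in both directions, each below the share over all genes. Of its 36 tested subunits 2 rose, 5.56% against 10.0% of all genes, and 3 fell, 8.33% against 12.0%. The median was -0.01. Ndufs4, an accessory subunit known from Leigh syndrome that helps complete the assembly of the enzyme, was at 17.6, 35.5 and 33.1 CPM in the NCD vehicle libraries, 19.3, 18.1 and 26.04 with HFD-STZ vehicle and 49.8, 48.8 and 39.5 with HFD-STZ DHZ. All 3 treated libraries lay above the 6 others. Its mean level was 21.1 ± 4.29 CPM with HFD-STZ vehicle and 46.04 ± 5.65 with HFD-STZ DHZ (SD, n = 3 each), which is 1.12 on the log2 scale (SE 0.27, adjusted p = 0.016 by edgeR's quasi-likelihood test). Ndufc2, an accessory subunit of the membrane arm, had 8.71, 15.9 and 19.4 CPM in the NCD vehicle libraries, 13.8, 11.7 and 18.7 with HFD-STZ vehicle and 28.3, 35.4 and 25.9 with HFD-STZ DHZ. Here too the treated libraries were the highest, and the log2 fold change was 1.01 (SE 0.29, adjusted p = 0.029). Ndufc2 lost its call with library size alone and kept it in only 5 of the 9 fits with a library left out.

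The 3 complex I genes that fell did not overlap between the HFD-STZ groups. The same held for all 14 risen and all 4 fallen members and for 39.8% of all genes. It rests on the same libraries as the calls and adds no support to them. Ndufs7, a core subunit that carries the iron-sulfur cluster next to the ubiquinone site, stood at 34.9, 30.1 and 27.5 CPM in the NCD vehicle libraries, 32.5, 48.96 and 43.7 with HFD-STZ vehicle and 19.8, 25.7 and 21.9 with HFD-STZ DHZ, and fell by 0.89 on the log2 scale (SE 0.22, adjusted p = 0.016). Ndufb2, an accessory membrane-arm subunit, measured 17.1, 12.2 and 12.2 CPM, 14.8, 24.8 and 13.9 CPM and 8.47, 9.46 and 8.90 CPM in the same order of groups, with a log2 fold change of -0.98 (adjusted p = 0.017). Its treated libraries lay close together, while HFD-STZ vehicle replicate 2 was well above the other 2 of its group. Ndufa10, an accessory subunit of the matrix-facing part, gave 164, 125 and 114 CPM, 144, 151 and 232 CPM and 78.9, 96.7 and 102 CPM, with -0.93 (adjusted p = 0.028); HFD-STZ vehicle replicate 3 was its highest library. For Ndufs7 and Ndufb2 the call was lost when counts were corrected for transcript length and GC content and when library size alone was used, and both lost it without HFD-STZ DHZ replicate 1, Ndufb2 also without replicate 2 of that group. Ndufa10 lost its call with library size alone, with the replicate block, without HFD-STZ vehicle replicate 3 and without each HFD-STZ DHZ replicate in turn. The 7 nuclear core subunits, which carry the flavin and the iron-sulfur clusters, held 1 call, that of Ndufs7; their log2 fold changes ran from -0.89 to 0.68, the highest being that of Ndufv1, the NADH-binding subunit (adjusted p = 0.13).

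Complex II, succinate dehydrogenase, is the only enzyme shared by the citrate cycle and the respiratory chain and the only complex with no mitochondrially encoded subunit. Of its 4 genes, Sdha and Sdhd rose, 50.0% against 10.0% of all genes. All 4 estimates lay above 0, with a median of 0.94. Sdha, the catalytic flavoprotein whose promoter is printed above, was at 50.3, 58.8 and 64.6 CPM in the NCD vehicle libraries, 48.7, 45.5 and 61.9 with HFD-STZ vehicle and 125, 131 and 83.7 with HFD-STZ DHZ. Every treated library exceeded every other, and HFD-STZ DHZ replicate 3 was the lowest of the treated. The log2 fold change was 1.12 (SE 0.24, adjusted p = 0.01), or 2.17-fold. Sdhd, a membrane anchor, had 22.2, 32.6 and 32.4 CPM in the NCD vehicle libraries, 20.1, 27.1 and 23.03 with HFD-STZ vehicle and 55.6, 56.4 and 34.6 with HFD-STZ DHZ (1.07, SE 0.25, adjusted p = 0.014). Sdhc, the other anchor, was at 26.2, 19.3 and 47.95 CPM with HFD-STZ vehicle and 55.3, 61.2 and 48.7 with HFD-STZ DHZ; its groups did not overlap, but the change of 0.81 missed the threshold (adjusted p = 0.063). Sdhb, the iron-sulfur subunit, did overlap between the groups, with 72.9, 63.7 and 95.8 CPM against 109, 130.0 and 84.9 (0.48, adjusted p = 0.19). Summed, the 4 genes made up 0.0916% ± 0.0174 of nuclear protein-coding counts with NCD vehicle, 0.0734% ± 0.0173 with HFD-STZ vehicle and 0.143% ± 0.0258 with HFD-STZ DHZ (SD, n = 3 each). The lowest treated library, 0.113%, was above the highest of the other 6, 0.103%.

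Complex III, the cytochrome bc1 complex, had 2 genes that rose and 1 that fell among 9. The shares were 22.2% against 10.0% of all genes for rises and 11.1% against 12.0% for falls. Uqcrh, the acidic hinge protein at the cytochrome c1 surface whose promoter is printed above, was at 47.96, 86.6 and 85.5 CPM in the NCD vehicle libraries, 42.5, 33.2 and 54.1 with HFD-STZ vehicle and 116, 117 and 79.0 with HFD-STZ DHZ. The treated libraries lay above the HFD-STZ vehicle libraries but overlapped NCD vehicle, since 2 NCD libraries exceeded HFD-STZ DHZ replicate 3. Its log2 fold change was 1.27 (SE 0.29, adjusted p = 0.013). Uqcrfs1, the Rieske iron-sulfur protein, measured 30.1, 32.4 and 53.9 CPM with HFD-STZ vehicle and 75.9, 82.4 and 58.7 with HFD-STZ DHZ (0.90, adjusted p = 0.035). It lost its call in 4 of 10 other settings and kept it in only 4 of the 9 fits with a library left out. Uqcrq, a small membrane subunit, went the other way: 82.3, 78.98 and 68.7 CPM in the NCD vehicle libraries, 68.8, 105 and 97.1 with HFD-STZ vehicle and 41.3, 53.3 and 50.4 with HFD-STZ DHZ (-0.90, SE 0.23, adjusted p = 0.018). Its 3 treated libraries were the lowest of the 9, and the call was lost with library size alone and with the length and GC correction. Cyc1, the cytochrome c1 haem protein, had a log2 fold change of 0.53 that missed the threshold (adjusted p = 0.11).

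Complex IV, cytochrome c oxidase, held the largest change of any tested member in this comparison, that of Cox5a. Of 14 tested genes 3 rose, 21.4% against 10.0% of all genes, and none fell, against 12.0%. Cox5a, a haem-proximal subunit on the matrix side, was at 9.68, 27.9 and 22.8 CPM in the NCD vehicle libraries, 11.3, 4.86 and 10.99 with HFD-STZ vehicle and 38.5, 46.6 and 28.4 with HFD-STZ DHZ. The lowest treated library was above all 6 others, and NCD vehicle replicate 1 lay among the HFD-STZ vehicle libraries. The log2 fold change was 2.04 (SE 0.40, adjusted p = 0.0074 by edgeR's quasi-likelihood test), or 4.11-fold. Cox7a2, the widely expressed form of subunit VIIa, gave 24.7, 46.5 and 45.3 CPM in the NCD vehicle libraries, 20.3, 20.6 and 30.2 with HFD-STZ vehicle and 67.5, 71.5 and 51.9 with HFD-STZ DHZ (1.42, SE 0.28, adjusted p = 0.0074). Ndufa4, a subunit bound at the surface of the enzyme, was at 33.9, 72.7 and 66.99 CPM, 22.01, 31.3 and 43.6 CPM and 89.7, 93.8 and 59.5 CPM in the same order (1.33, SE 0.34, adjusted p = 0.018). For Cox7a2 the treated libraries were the highest of the 9, while Ndufa4 had NCD libraries within the treated range. Cox5b, the zinc-binding partner of Cox5a, had 109.7, 109 and 138 CPM with HFD-STZ vehicle and 106, 134 and 98.8 with HFD-STZ DHZ, a change of -0.07 on the log2 scale (SE 0.26, adjusted p = 0.86).

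Several complex IV subunits exist as paired genes, with a general form and a form known from heart, muscle, lung, brown fat or testis. Levels between genes were compared per length, in TPM-like units (counts per kilobase of transcript model, scaled to the sum over all nuclear protein-coding genes of the library), averaged over the 9 libraries. By that measure the general form was above its partner in each pair. Cox4i1 stood at 1861 and the lung-type, hypoxia-responsive Cox4i2 at 1.91. Cox6a1 was at 1047 against 3.31 for the heart and muscle form Cox6a2, and Cox6b1 at 2061 against 29.8 for the testis form Cox6b2. Subunit VIIa differed less, with Cox7a2 at 564 and the muscle form Cox7a1 at 80.8. Cox8a reached 814, while Cox8b, known from muscle and brown fat, was at 14.6 and Cox8c had no count. Cox7b was at 1254 and Cox7b2 had 1 count in the whole data set, and Ndufa4 was at 824 against 1.97 for Ndufa4l2. No partner form that passed the filter was called in any comparison. Cox8b was detected at 0, 0.54 and 1.69 CPM in the NCD vehicle libraries, 1.19, 0 and 0 with HFD-STZ vehicle and 1.21, 0.37 and 0.0291 with HFD-STZ DHZ. Markers of brown fat other than the members summed to 4.79 CPM in HFD-STZ DHZ replicate 1 and to at most 1.89 in the other libraries, and white fat markers were highest in HFD-STZ DHZ replicate 1 (86.5 CPM) and NCD vehicle replicate 3 (75.8 CPM); their part in the level of Cox8b was not tested.

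Complex V, the ATP synthase, rose in 3 of 16 tested genes, 18.8% against 10.0% of all genes, and none fell, against 12.0%. The 3 were both large subunits of the catalytic head and a subunit of the outer stalk. Atp5f1, the b subunit of the peripheral stalk, had the lowest p of any member. It was at 38.98, 60.5 and 62.95 CPM in the NCD vehicle libraries, 30.1, 32.5 and 38.0 with HFD-STZ vehicle and 149, 130.5 and 85.3 with HFD-STZ DHZ. The 3 groups did not overlap at all, with HFD-STZ vehicle lowest and HFD-STZ DHZ highest. The log2 fold change was 1.86 (SE 0.28, adjusted p = 0.0031 by edgeR's quasi-likelihood test), or 3.62-fold. Atp5b, the catalytic beta subunit, was at 143, 198 and 198 CPM in the NCD vehicle libraries, 125, 111 and 139 with HFD-STZ vehicle and 285, 335 and 199 with HFD-STZ DHZ (1.12, SE 0.27, adjusted p = 0.015). Atp5a1, the alpha subunit, was at 97.1, 157 and 161 CPM, 85.3, 61.5 and 122 CPM and 249, 272 and 163 CPM (1.34, SE 0.33, adjusted p = 0.015). For both, the lowest treated library was only just above the highest NCD library.

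The small subunits of the head and the ring did not all follow. Atp5c1, the gamma subunit of the rotor, had 80.9, 91.7 and 126 CPM with HFD-STZ vehicle and 166, 188 and 129 with HFD-STZ DHZ (0.69, adjusted p = 0.083). Atp5e, the epsilon subunit, had 75.2, 84.97 and 95.98 CPM and 44.0, 68.6 and 45.9 CPM, a change in the opposite direction that just missed the threshold (-0.69, adjusted p = 0.051). Its treated libraries were all below the HFD-STZ vehicle libraries. The 3 genes of the c ring, Atp5g1, Atp5g2 and Atp5g3, encode the same mature protein and had log2 fold changes of 0.39, 0.57 and 0.79, none of them called. Counts of Atp5g2 are uncertain, because near-identical copies elsewhere in the genome together hold 118% of its own count. Such copies held over 10% of the own count for 8 members, none of them called, and the largest value among called members was 2.3% for Atp5f1. Outside the rule, Atpif1 had a log2 fold change of 0.79 (adjusted p = 0.091) and Usmg5 of -0.23 (adjusted p = 0.63).

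Of the 10 assembly factors and associated proteins, 2 rose, 20.0% against 10.0% of all genes, and none fell, against 12.0%. Cox7a2l, which takes part in joining complexes III and IV into supercomplexes, was at 12.9, 22.5 and 24.9 CPM in the NCD vehicle libraries, 13.2, 6.20 and 11.3 with HFD-STZ vehicle and 35.9, 41.9 and 21.2 with HFD-STZ DHZ. Treated and untreated HFD-STZ libraries were apart, but HFD-STZ DHZ replicate 3 lay below 2 of the NCD libraries. Its log2 fold change was 1.67 (SE 0.34, adjusted p = 0.0083). Ndufaf1, an early factor in building the membrane arm of complex I, measured 4.49, 4.78 and 4.78 CPM, 3.25, 3.64 and 5.38 CPM and 8.23, 9.18 and 8.08 CPM in the 3 groups (1.04, SE 0.23, adjusted p = 0.011), with all treated libraries above the rest. Differences in response between the complexes were not tested.

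**Figure D2:**
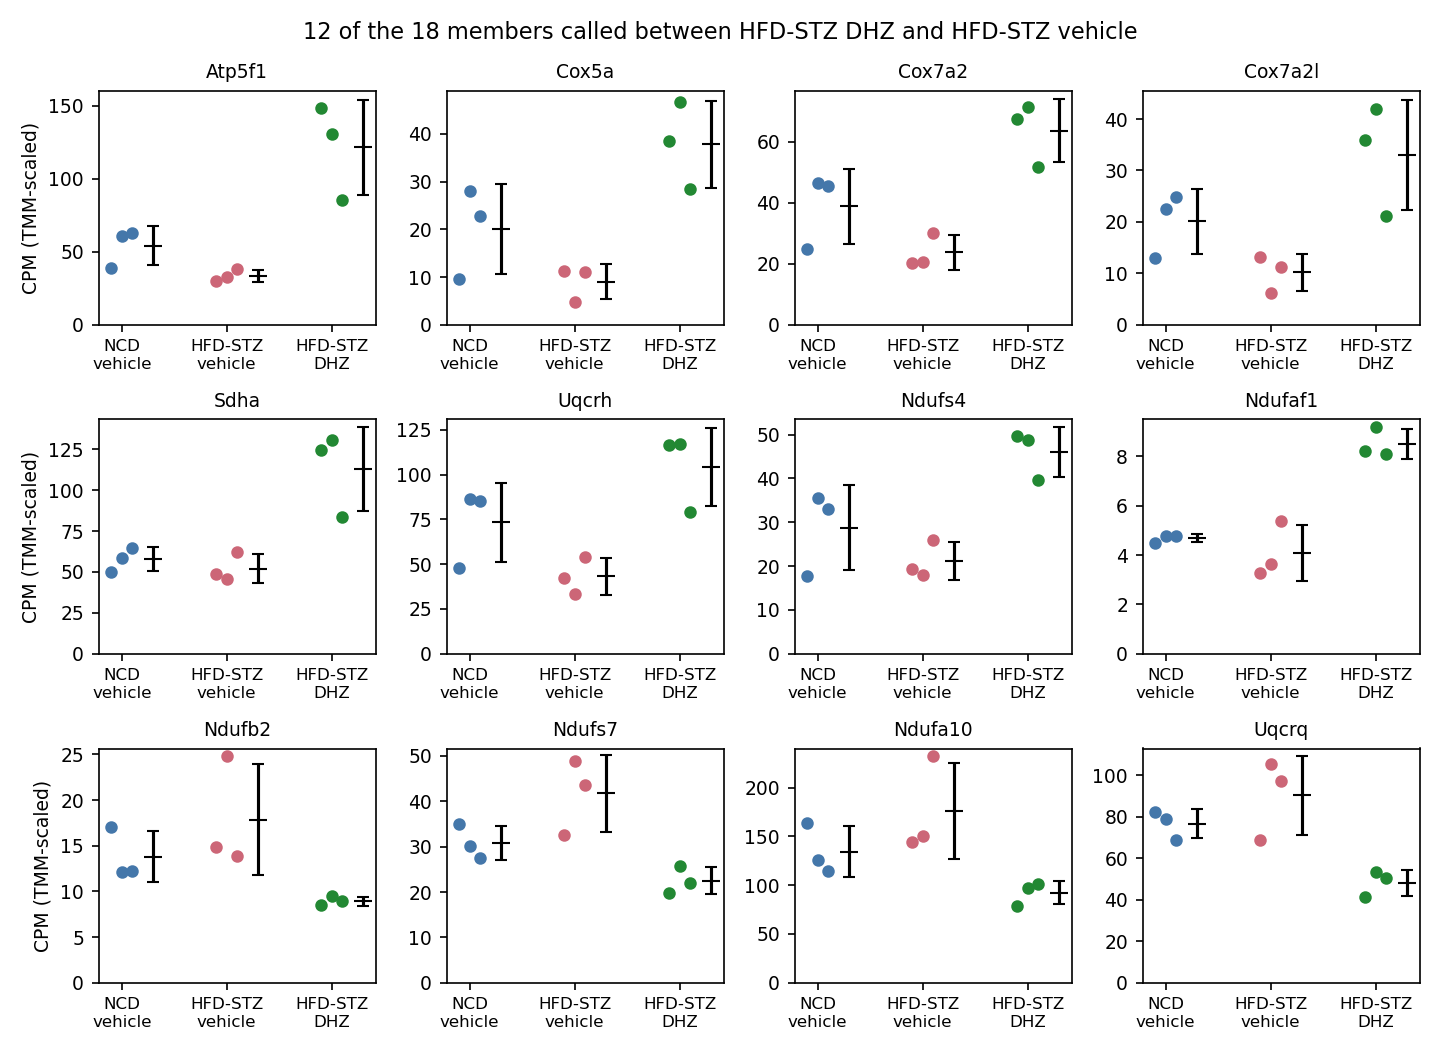
Levels of 12 of the 18 called members in CPM (y axis, from 0) in the 3 libraries of each group (coloured points, in replicate order), with the group mean and SD in black. In the first 8 panels the treated libraries lie above the HFD-STZ vehicle libraries, and in the last 4 (Ndufb2, Ndufs7, Ndufa10 and Uqcrq) below them.

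Atp5f1, Cox5a, Cox7a2 and Cox7a2l stayed called in all 10 other processing settings and with each of the 9 libraries left out in turn. Their identifiers in the count table are ENSMUSG00000000563.18 (chromosome 3), ENSMUSG00000000088.8 (chromosome 9), ENSMUSG00000032330.8 (chromosome 9) and ENSMUSG00000024248.15 (chromosome 17). Over all settings the log2 fold change ran from 1.67 to 2.65 for Atp5f1, from 1.76 to 2.66 for Cox5a, from 1.27 to 2.21 for Cox7a2 and from 1.38 to 2.29 for Cox7a2l. In each case the upper end belongs to scaling by library size alone.

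Ratios of counts within a library do not depend on the scaling between libraries; the pairs were chosen after their values were seen and are given without a test. Cox5a per Cox5b was 0.157 ± 0.0444 with NCD vehicle, 0.0757 ± 0.0296 with HFD-STZ vehicle and 0.333 ± 0.0394 with HFD-STZ DHZ (SD, n = 3 each). All 3 treated libraries, from 0.288 to 0.363, were above the highest untreated one, 0.198. Cox7a2 per Cox7a1 was 9.85 ± 1.73, 8.52 ± 3.53 and 19.0 ± 1.15 in the same order of groups, and Atp5b per Atp5e 2.22 ± 0.403, 1.47 ± 0.180 and 5.23 ± 1.11. Within complex II, Sdha per Sdhb went from 0.668 ± 0.0723 and 0.676 ± 0.0346 to 1.04 ± 0.0842. The ratio of the alpha to the beta subunit of the ATP synthase differed less: Atp5a1 per Atp5b was 0.761 ± 0.0700, 0.705 ± 0.164 and 0.836 ± 0.0342. HFD-STZ vehicle overlapped both other groups, while the lowest treated library, 0.812, lay just above the highest NCD library, 0.809. In complex I, Ndufs1 per Ndufs7, both core subunits with iron-sulfur clusters, was 1.34 ± 0.137, 1.15 ± 0.0807 and 2.49 ± 0.574.

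**Figure D3:**
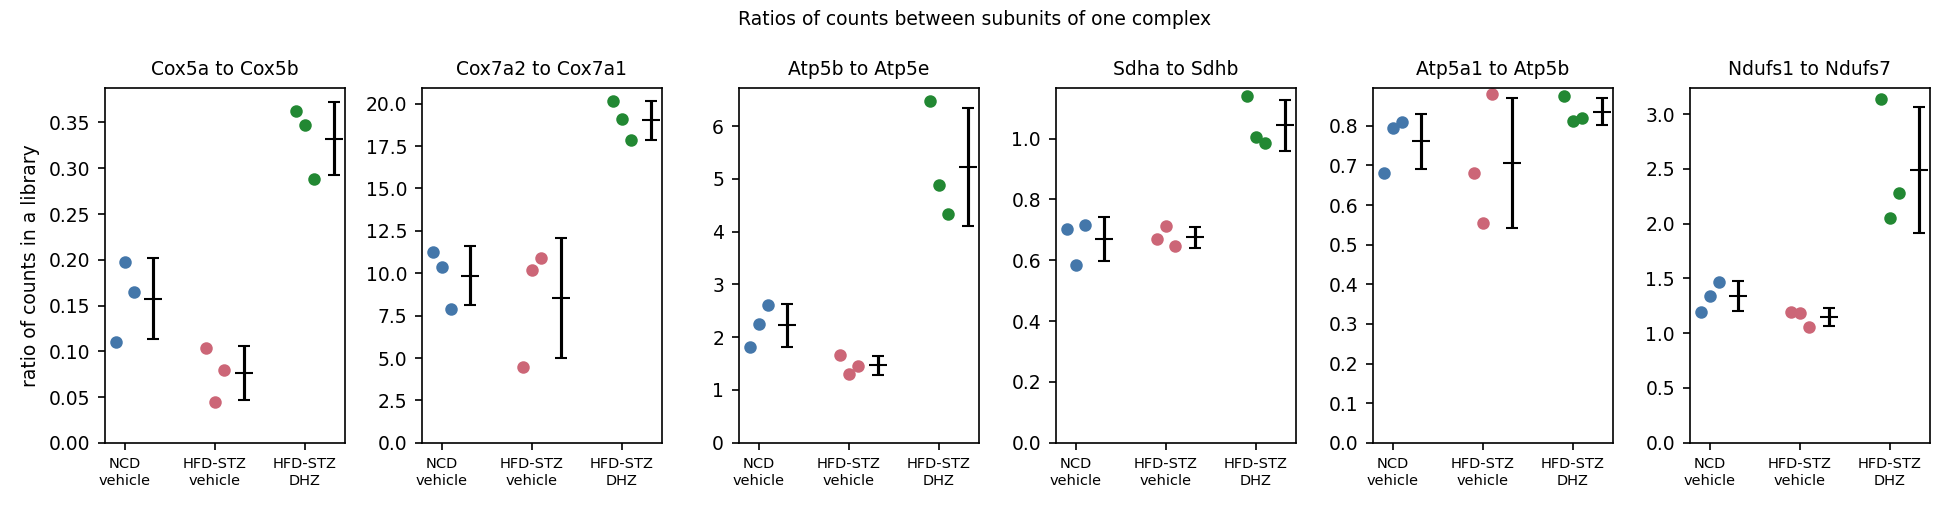
Ratio of the counts of 2 subunits of the same complex within each library (y axis, from 0) in the 3 groups, with the mean and SD in black. The HFD-STZ DHZ libraries are separate from the other 6 in every panel but that of Atp5a1 to Atp5b.

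Summed over all members, the share of nuclear protein-coding counts was 2.28% ± 0.399 with NCD vehicle, 1.97% ± 0.282 with HFD-STZ vehicle and 2.60% ± 0.302 with HFD-STZ DHZ (SD, n = 3 each). The treated libraries, at 2.63%, 2.88% and 2.28%, lay above the HFD-STZ vehicle libraries, at 1.96%, 1.69% and 2.25%, and overlapped the NCD libraries, at 1.83%, 2.48% and 2.55%. Complex I was level across the groups at 0.820% ± 0.0821, 0.771% ± 0.107 and 0.819% ± 0.0548. Complex V was at 0.595% ± 0.130, 0.455% ± 0.0808 and 0.735% ± 0.119. In a bulk sample, fewer cells of a type and less RNA per cell cannot be told apart. With 3 libraries against 3, an exact permutation test cannot go below p = 0.10, so these sums carry no test.

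The libraries of a group were not alike. For the 14 members that rose, NCD vehicle replicate 1 was the lowest NCD library in 14 of 14 cases and HFD-STZ DHZ replicate 3 the lowest treated library in 14 of 14. Both carry Y-linked transcripts. The 2 HFD-STZ vehicle libraries that carry them went different ways: replicate 2 was the lowest of its group in 8 of the 14 cases, and replicate 3 was the lowest in 0 and the highest in 11. With the presence of Y-linked transcripts as a term in the fit, 17 members were called, all of them among the 18, and 21.3% of all genes. Without HFD-STZ vehicle replicate 2, the library with the highest mitochondrial share, 17 were called, 16 of them among the 18, and 19.4% of all genes. The 5 markers of the thick ascending limb summed to 709.8, 1379 and 1413 CPM with NCD vehicle, 1440, 1809 and 832 with HFD-STZ vehicle and 2531, 2520 and 1125 with HFD-STZ DHZ, 2 of the 5 rose and none fell. Within NCD vehicle these sums were lowest in replicate 1 and within HFD-STZ DHZ in replicate 3, as for the risen members. Their order within HFD-STZ vehicle was not that of the risen members, since replicate 3 had the lowest marker sum there. The 4 podocyte markers, of the filtering cells of the glomerulus, summed to 44.9, 61.8 and 64.1 CPM with NCD vehicle, 37.4, 14.3 and 32.6 with HFD-STZ vehicle and 73.9, 83.2 and 63.1 with HFD-STZ DHZ, and 2 rose and none fell. Their sums were lowest in HFD-STZ vehicle, and within NCD vehicle and HFD-STZ DHZ lowest in replicates 1 and 3, as for the risen members. Of the 4 macrophage markers 2 rose and 1 fell, with sums of 29.8 to 44.6 CPM with NCD vehicle, 16.3 to 39.1 with HFD-STZ vehicle and 21.1 to 23.3 with HFD-STZ DHZ. Of the 8 proximal tubule markers 1 rose and none fell, with sums of 2156 to 2514 CPM with NCD vehicle, 1691 to 3563 with HFD-STZ vehicle and 2023 to 2475 with HFD-STZ DHZ. Other segments went the other way. Among the 4 distal convoluted tubule markers none rose and 1 fell, with a median of -0.41. Their sums were 783, 776 and 854 CPM with HFD-STZ vehicle and 777.5, 439 and 376 with HFD-STZ DHZ. For the 4 markers of collecting duct principal cells none rose and 1 fell (median -0.58). The 5 intercalated cell markers held no call (median -0.24). Over all genes 10.0% rose and 12.0% fell. No marker of these lists was at 0 in all libraries. The part of cell type, of Y-linked status and of the mitochondrial share of counts in the members' changes was not tested beyond the fit named here.

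**Figure D4:**
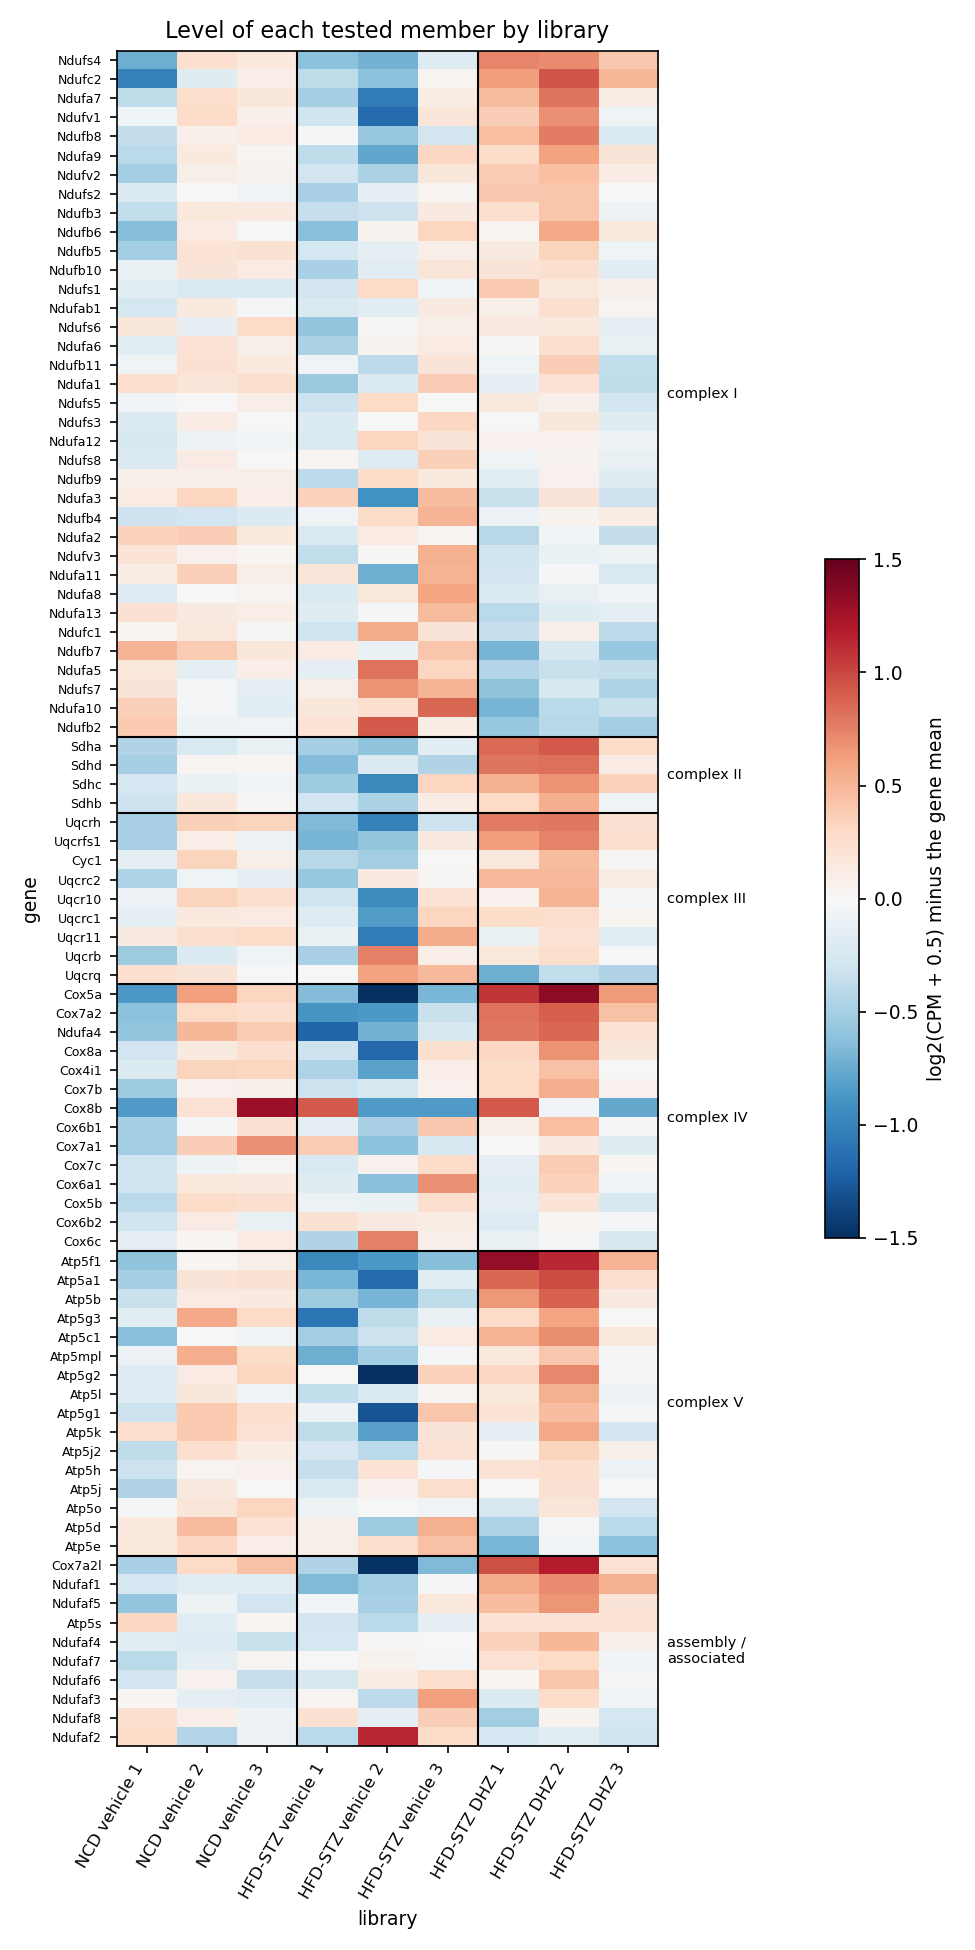
Level of each of the 89 tested members (rows, ordered by complex and then by fold change) in the 9 libraries (columns), as log2(CPM + 0.5) minus the gene's mean over the libraries, red above and blue below. The upper rows of each complex are red in HFD-STZ DHZ replicates 1 and 2 and paler in replicate 3, and NCD vehicle replicate 1 is blue in most of the same rows.

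Between HFD-STZ vehicle and NCD vehicle no member was called by edgeR's quasi-likelihood test with Benjamini-Hochberg adjustment, where 0.0524% of all genes were. DESeq2 called none either, and 9 of 89 members had an unadjusted p below 0.05, where 7.43% of all genes did. Of these 9, Ndufb4 had an estimate above 0 and Uqcrh, Cox5a, Cox7a2, Ndufa4, Atp5f1, Atp5g3, Atp5mpl and Cox7a2l below 0. The largest estimate was that of Cox5a, with 20.1 ± 9.40 CPM in NCD vehicle and 9.06 ± 3.65 in HFD-STZ vehicle, a change of -1.13 on the log2 scale (SE 0.39, adjusted p = 0.55), followed by Cox7a2l at -0.96 (adjusted p = 0.55). The median over members was -0.13, beside -0.003 for all genes, and 32 of the 89 estimates, against 49.7% over all genes, were above 0. Groups did not overlap for 5 members, 5.62% against 11.4% of all genes: Ndufb4 was higher in HFD-STZ vehicle, as were 4.83% of all genes, and Ndufa2, Atp5b, Atp5f1 and Atp5k were lower, as were 6.56%. Without the filter on low counts Cox5a and Cox7a2l were called lower, 2 of 93 members tested, with 1.33% of all genes called.

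This comparison and the DHZ comparison share the HFD-STZ vehicle libraries, so their estimates are linked by construction and are only set side by side. The 14 members that rose with DHZ had log2 fold changes of 0.90 to 2.04 in that comparison and of -1.13 to 0.01 between HFD-STZ vehicle and NCD vehicle. For the 4 that fell the ranges were -0.98 to -0.89 and 0.24 to 0.43.

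Between HFD-STZ DHZ and NCD vehicle, 5 members were called, 5.62% against 13.7% of all genes; 4 were higher, where 6.31% of all genes were, and 1 was lower, where 7.38% were. Atp5f1 (1.17, SE 0.27, adjusted p = 0.02), Ndufc2 (1.02, adjusted p = 0.037), Sdha (0.96, adjusted p = 0.025) and Ndufaf1 (0.86, adjusted p = 0.029) were higher in the treated animals by edgeR's quasi-likelihood test. Ndufb7, an accessory subunit of the complex I membrane arm, was lower: it was at 68.97, 62.9 and 54.3 CPM in the NCD vehicle libraries, 52.7, 44.9 and 64.8 with HFD-STZ vehicle and 29.4, 40.9 and 32.4 with HFD-STZ DHZ (-0.86, SE 0.22, adjusted p = 0.029). For all 5 the treated libraries did not overlap NCD vehicle, as for 38.2% of the members tested and 44.1% of all genes. The members' median was 0.13, against 0.006 for all genes and 0.08 for protein-coding genes. Cox5a, with 0.91, was not called (adjusted p = 0.13), nor was Uqcrq, with -0.67 (adjusted p = 0.07). These calls were not stable: none was left when NCD vehicle replicate 1 or 2 or HFD-STZ DHZ replicate 1 or 2 was left out or with library size alone, 3 were called without HFD-STZ DHZ replicate 3 and 10 without HFD-STZ vehicle replicate 2. The share of all genes called was between 0.21% and 4.38% in the fits with none, 9.29% in the fit with 3 and 20.6% in the fit with 10.

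Transcript GC content and transcript length moved with the members' fold changes where HFD-STZ DHZ was compared with either other group. Over the 89 members, Spearman's rho between the log2 fold change and the GC content of the transcript model was -0.35 in the DHZ comparison, -0.51 between HFD-STZ DHZ and NCD vehicle and -0.06 between HFD-STZ vehicle and NCD vehicle. Over 13476 protein-coding genes the same values were -0.19, -0.36 and -0.24. With transcript length in place of GC content, rho over the members was 0.26, 0.46 and 0.12 in the same order. Over the protein-coding genes it was -0.06, -0.05 and 0.04. These are correlations across genes that share the same libraries, and genes are not independent replicates. The risen members had a median GC content of 49.1% and the fallen ones of 56.0%, beside 51.6% for all members. Members are short, with a median model length of 809 bases against 2840 for protein-coding genes. With an offset for length and GC content 24 members were called in the DHZ comparison, 22 higher and 2 lower, with 23.4% of all genes called, and 15 of the 18 stayed called.

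**Figure D5:**
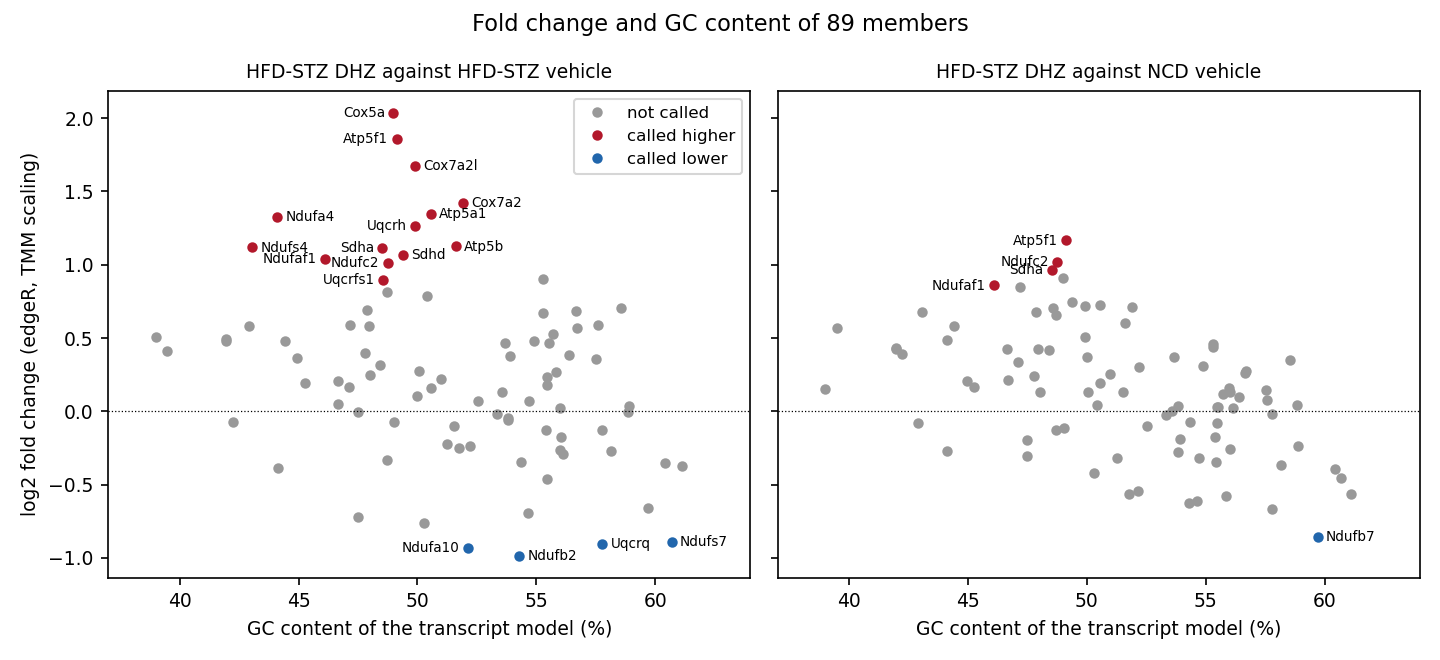
Log2 fold change of each of the 89 tested members (y axis) by the GC content of its transcript model in percent (x axis), with HFD-STZ DHZ set against HFD-STZ vehicle on the left and against NCD vehicle on the right. Called members are named; those called lower lie at a higher GC content than those called higher.

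The 13 respiratory chain proteins of the mitochondrial genome gave estimates on the other side. In the DHZ comparison all 13 lay below 0, with a median of -1.42, and 1 of them, mt-Nd6, was called lower (-1.26, adjusted p = 0.037). That is 7.69%, against 12.0% of all genes called lower. Between HFD-STZ vehicle and NCD vehicle all 13 lay above 0, with a median of 1.26 and none called. The number called depended on the method. In the DHZ comparison DESeq2 called 6 of the 13 lower, with 27.4% of all genes called. The fit without the filter called 3 lower there, with 14.5% of all genes called. With library size alone 11 of 13 stayed below 0 in the DHZ comparison (median -0.28) and 10 above 0 in the other (0.28), and without HFD-STZ vehicle replicate 2 the medians were -0.62 and 0.41; mt-Nd6 lost its call in both cases and in most other settings. mt-Nd6, a complex I subunit, was at 2485, 1444 and 1506 CPM in the NCD vehicle libraries, 1932, 3774 and 2334 with HFD-STZ vehicle and 1140.0, 1309 and 902 with HFD-STZ DHZ, with HFD-STZ vehicle replicate 2 the highest of the 9. These transcripts weigh on the total of each library, which is why nuclear genes are also given per nuclear protein-coding count.

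Regulators of mitochondrial biogenesis did not move in 1 direction. Of 16 tested in the DHZ comparison 4 rose, 25.0% against 10.0% of all genes, and 2 fell, 12.5% against 12.0%. Gabpa, the DNA-binding subunit of GABP, was at 3.05, 4.90 and 5.11 CPM in the NCD vehicle libraries, 3.79, 5.67 and 3.93 with HFD-STZ vehicle and 11.5, 11.1 and 9.48 with HFD-STZ DHZ (1.29, adjusted p = 0.0074). Its treated libraries were apart from all 6 others. Esrrg, an orphan nuclear receptor of oxidative genes (0.83, adjusted p = 0.021), Yy1 (0.78, adjusted p = 0.02) and the mitochondrial transcription factor Tfb2m (0.67, adjusted p = 0.045) also rose. Ppargc1b, a coactivator, fell from 34.3, 18.1 and 25.6 CPM in HFD-STZ vehicle to 8.94, 8.87 and 11.7 in HFD-STZ DHZ (-1.41, adjusted p = 0.0059), as did Polrmt, the mitochondrial RNA polymerase (-0.80, adjusted p = 0.028). Ppargc1a (-0.54, adjusted p = 0.16), Nrf1 (-0.46, adjusted p = 0.14) and Tfam (0.58, adjusted p = 0.12) were not called.

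Among 41 tested assembly and carrier factors outside the rule, 6 rose, 14.6% against 10.0% of all genes. In the other direction 3 fell, 7.32% against 12.0%, and the median was 0.14. The complex IV factors Surf1 (0.84) and Coa5 (1.10), the complex II factor Sdhaf2 (0.56), the ATP synthase factors Atpaf1 (0.87) and Tmem70 (1.21) and the complex I factor Acad9 (0.77) rose. Cox10 (-1.25), which makes the haem of complex IV, Cox20 (-0.86) and the complex III factor Ttc19 (-0.68) fell. Of 16 enzymes of the citrate cycle and pyruvate dehydrogenase, 4 rose (Suclg1 1.24, Sucla2 1.27, Mdh2 1.22 and Pdha1 0.83) and Ogdh fell (-0.94), with a median of 0.37. These are shares of 25.0% risen and 6.25% fallen, against 10.0% and 12.0% of all genes. Mitochondrial ribosomal proteins rose in 15 of 77 (19.5%) and fell in 1 (1.3%), with a median of 0.34. Cytosolic ribosomal proteins rose in 16 of 82 (19.5%) and fell in 1 (1.22%), with a median of 0.42. The shares over all genes were again 10.0% risen and 12.0% fallen. The cytosolic ribosome thus had a share of risen genes, 19.5%, above the members' 15.7%; whether these shares differ was not tested.

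Within the complexes the level of the genes spanned a wide range. The highest per-length level of all members was that of Cox6c, a small complex IV subunit, at 4320.4, and in complex V that of Atp5h, a peripheral stalk subunit, at 2412, with Atp5f1 lowest there at 385. That rank of Atp5f1 held for the means of NCD vehicle (305) and HFD-STZ vehicle (179) but not for that of HFD-STZ DHZ (671), where Atp5o was lowest at 384. Complex I ran from 122 for Ndufv1 to 1269 for Ndufa5, and complex III from 176 for Cyc1 to 2225 for Uqcrb. In complex II Sdhb led with 702 and Sdhc was lowest with 112. Among assembly factors and associated proteins the range was 27.5 for Ndufaf3 to 175 for Cox7a2l, although in HFD-STZ vehicle Ndufaf2, at 186, stood above Cox7a2l, at 84.6. These levels rest on a single transcript model per gene and are approximate. Of the genes at the top of their complex, Cox6c (-0.33), Ndufa5 (-0.76), Uqcrb (-0.07), Sdhb (0.48) and Atp5h (0.16) were not called in the DHZ comparison.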

How the data were processed

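Values are raw counts per gene as deposited by the authors; FastQC, Trim Galore and STAR and the build GRCm39 (mm39) are named in the submitters' processing notes, while no counting tool, strand setting or annotation is named in these sources. Libraries were stranded, poly(A)-selected and made from 500 ng RNA, per the labels' protocols. Groups came from the sample titles, since the treatment label names the compound for all 9 samples. Ensembl identifiers were given symbols, classes, transcript lengths and GC content from GENCODE M21 (GRCm38, an older build; 94.1% matched), with no coordinates used; promoter windows came from RefSeq (GRCm38.p6). From the counts, genes were filtered with filterByExpr, scaled with TMM and tested in 1 fit of all 9 libraries with edgeR 4.0.16 (R 4.3.3), glmQLFit (robust) and glmQLFTest, two-sided, with Benjamini-Hochberg adjustment over 17179 genes. The common dispersion was 0.0893 on 6 residual degrees of freedom. DESeq2 1.42.0 was an alternative, as were other scalings, no filter, only the groups compared, a replicate block, a Y-linked term, a length and GC offset and leaving out each library. Adding counts of near-identical copies (blastn 2.17.0, at least 95% identity over 80% of the shorter transcript) was chosen after seeing the data. The fit was also run on simulated counts, drawn from an expression profile shared by all libraries apart from genes changed on purpose. Those counts lack the differences in mitochondrial share between these libraries, so the run cannot show how the fit handles them. The members and lists were chosen with earlier results of these data known. Genes were named by a rule: up to 3 called members per complex, comparison and direction with the lowest p, the 2 lowest where none was called, isoform pairs, the Sdh genes and the extremes of level in each complex; the ratios and a few neighbours named beside them were picked afterwards.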

Additional observations from a re-analysis of the deposited data

How the results depend on the processing

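Beyond the values above, 3 kinds of choice moved the members' results. Scaling by library size alone shifted the median log2 fold change of members to -0.89 for HFD-STZ vehicle against NCD vehicle and to 1.04 in the comparison of HFD-STZ DHZ with HFD-STZ vehicle, while the medians of all genes went to -0.74 and 0.81. The count of members called in HFD-STZ vehicle against NCD vehicle became 2 without the filter (1.33% of all genes called) and stayed at 0 in the other settings and with each library left out. In HFD-STZ DHZ against HFD-STZ vehicle the count was between 13 and 24 in the 10 other settings, 16 with the replicate block (12.6% of all genes called), and ran from 5 to 24 with a library left out, with a median between 0.14 and 0.47. In HFD-STZ DHZ against NCD vehicle, where 5 were called, the count was 0 with library size alone (0.21% of all genes called), 8 without the filter (10.6%), 13 with only the 2 groups compared (23.6%), 10 with the Y-linked term (21.1%) and 12 with DESeq2 (20.5%), and ran from 0 to 10 with a library left out, with a median between 0.04 and 0.24. The median for HFD-STZ vehicle against NCD vehicle ran from -0.28 to -0.03 with a library left out. The replicate block gave 0 calls in HFD-STZ DHZ against NCD vehicle (4.49% of all genes called) and 0 again with the length and GC offset added (5.48%); libraries with the same replicate number had correlations of deviations between -0.41 and 0.22, so the numbers are not taken to pair them. For the members that fell in HFD-STZ DHZ against HFD-STZ vehicle, the estimates came near 0 in some settings. Over all settings the value nearest 0 was -0.00048 for Ndufs7, -0.0098 for Uqcrq, -0.07 for Ndufb2 and -0.14 for Ndufa10. No called value changed sign in any setting. Of the estimates that were not called, some did: 86 of 2223 values, from 37 of the 117 estimates followed, had the other sign, 22 of them with library size alone; between HFD-STZ vehicle and NCD vehicle, Cox6a1 went from 0.05 to -0.41 without HFD-STZ vehicle replicate 3. The cause of these shifts was not tested. Depth limits the low members most: tested members had between 167 and 63384 counts in all, and Cox8b, with 167, had a standard error of 1.60 on the log2 scale.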
